A study of Mus musculus with 2 samples.

Results

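Close pairs of CTCF peaks were examined in 2 kinds of mouse cells, embryonic stem (ES) cells and embryonic fibroblasts (MEFs). A close pair was a pair of neighbouring peaks of the same list, on chromosomes 1 to 19, whose starts lay 400 to 1000 bp apart and whose deposited scores were both below 400. The ES list held 1865 close pairs among 43277 neighbouring pairs under the same score limit, or 4.31% (95% Wilson interval 4.12 to 4.50). The MEF list held 2059 among 52046, or 3.96% (3.79 to 4.13). The pairs were chosen by their spacing and score, and both of these are given as descriptions.

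CTCF was mapped by chromatin immunoprecipitation and sequencing, with 1 library and 1 deposited peak list per cell type. The ES cells had the genetic background Bl3.10 and C57BL and the MEFs C57BL6. Both were grown in DMEM with 10% fetal calf serum, and the same Millipore antibody against CTCF was used for both. The lists held 43523 ES peaks and 52220 MEF peaks on chromosomes 1 to 19, and the read depth behind them is unknown. Differences of cell type, genetic background and preparation cannot be told apart, and without replicates no difference between the lists or between sets of pairs has a test. All intervals cover counting error only and treat pairs as independent, although neighbouring pairs can share a member. Cell identity was not checked, since peak positions carry no marker levels. An input background was not analysed here.

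CTCF is a zinc-finger protein that binds a long, directional DNA motif and is found at insulators and at the anchors of chromatin loops, where cohesin is held. Neighbouring CTCF sites occur in clusters at domain borders, and the orientation of their motifs is known to bear on which loops form. A peak list gives neither the motif nor its orientation.

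The limits of the rule fell within a continuous range. The closest pairs kept were spaced 400 bp in both lists, on chromosome 5 in ES cells and on chromosome 2 in MEFs. The nearest left out were spaced 399 bp. At the upper limit the widest pairs kept were spaced 1000 bp in ES cells and 999 bp in MEFs, and the next were spaced 1001 bp in both. The highest score inside the limit was 389 in ES cells and 390 in MEFs, and the lowest above it among pairs of this spacing was 402 and 410. The score limit removed 53 ES pairs and 17 MEF pairs.

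Close pairs were called again in the other cell type more often than wider neighbours, but most were not called whole. A member counted as shared if any peak of the other list covered at least 1 of its bases. In ES cells both members of 434 pairs were shared (23.3%, 21.4 to 25.2), 1 member of 724 pairs (38.8%, 36.6 to 41.1) and none of 707 (37.9%, 35.7 to 40.1). For comparison, both members were shared in 8.54% of all neighbouring ES pairs, in 13.4% of those spaced 1001 to 2000 bp and in 6.73% of those spaced over 1000 bp. In MEFs both members of 438 pairs were shared (21.3%, 19.6 to 23.1), 1 member of 730 (35.5%, 33.4 to 37.6) and none of 891 (43.3%, 41.1 to 45.4). No member was shared in 56.5% of all neighbouring ES pairs and in 63.5% of all neighbouring MEF pairs. For both members, all neighbouring MEF pairs gave 6.94%, those spaced 1001 to 2000 bp 10.8% and those over 1000 bp 5.30%. The both-shared intervals of close pairs lay above those of neighbours spaced 1001 to 2000 bp in each list (11.96 to 15.02 in ES cells, 9.59 to 12.1 in MEFs). Overlapping neighbours, spaced 201 to 398 bp, stood higher still, at 56.7% of 953 ES pairs (53.5 to 59.8) and 48.1% of 1210 MEF pairs (45.3 to 50.9). With a separate partner peak required for each member, they gave 18.9% and 17.9%, against 19.8% and 18.3% of close pairs.

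Counted as single peaks, 1455 of 3527 ES members were shared (41.3%, 39.6 to 42.9), against 26.0% of all ES peaks with scores below 400 and 24.7% of those in no close pair. In MEFs 1458 of 3887 members were shared (37.5%, 36.0 to 39.04), against 21.8% and 20.5%. The gap was present at every score level. In the lowest-scoring 20% of the ES list 33.5% of members (30.2 to 37.1) and 22.4% of other peaks (21.5 to 23.3) were shared. In the highest 20% the values were 59.9% (56.6 to 63.05) and 37.9% (36.8 to 38.96). In MEFs they were 24.0% (21.1 to 27.1) and 14.5% (13.8 to 15.2) in the lowest 20%, and 60.1% (57.1 to 62.9) and 42.5% (41.5 to 43.5) in the highest. Members lay above other peaks in each of the 5 score groups of both lists, with intervals that did not overlap.

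Members of a pair were shared together more often than independence gives. With 42.7% of ES member places shared, counting a peak in 2 pairs at each place, independent members would give 18.2% both-shared, 48.9% one-shared and 32.8% none-shared pairs. The observed both-shared percentage was 1.28 times that product (1.17 to 1.39, expected value held fixed). With 39.0% of MEF member places shared, independence would give 15.2%, 47.6% and 37.2%, and the observed both-shared percentage was 1.40 times the product (1.29 to 1.52). One-shared pairs were fewer than expected in both lists, at 0.793 and 0.745 times. Expressed as a conditional value, a member of an ES pair was shared in 54.5% of cases when its neighbour was shared and in 33.9% when it was not. In MEFs the values were 54.5% and 29.1%. The size depended on the overlap required. When a shared peak had to overlap by 50% of its width, 13.0% of ES pairs and 11.7% of MEF pairs were both-shared. These were 1.07 (0.950 to 1.20) and 1.25 (1.11 to 1.41) times the products, and the ES interval then included 1.

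**Figure D1:**
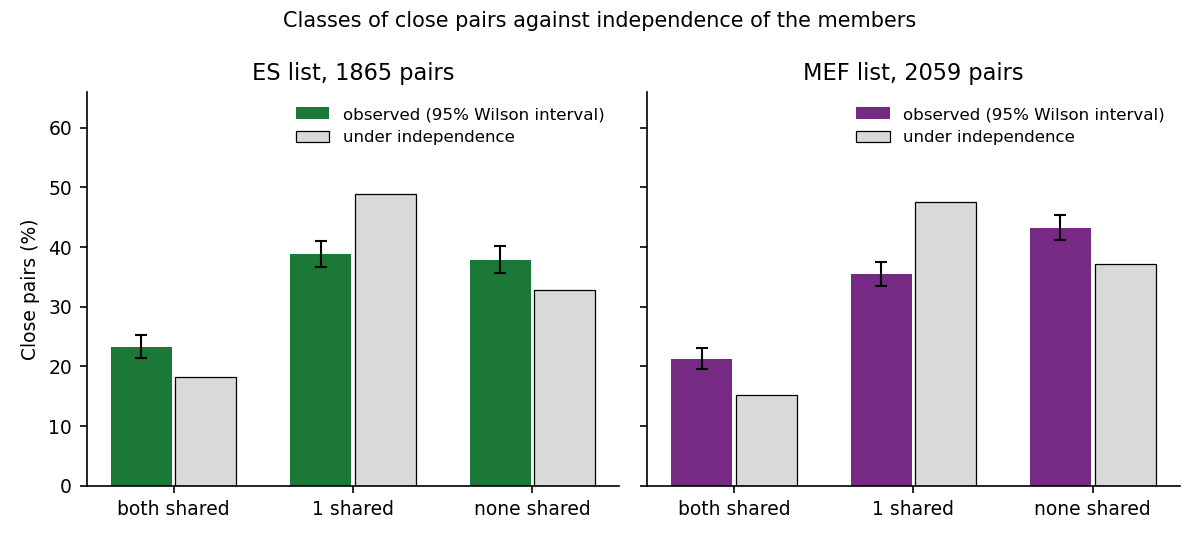
Percentage of close pairs (y axis) with both, 1 or no member shared with the other list, for the ES list (left) and the MEF list (right). Coloured bars are observed values with 95% Wilson intervals and grey bars are the values under independent members; both-shared pairs stand at 23.3% against 18.2% in ES cells and at 21.3% against 15.2% in MEFs.

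The partners of both-shared pairs were of 3 kinds. In ES cells 266 of the 434 pairs (61.3%) met a close pair of the MEF list, member for member and in order, and are called matched pairs here. Another 104 pairs (24.0%) met separate MEF peaks that did not form a close pair. The remaining 64 (14.7%) met 1 MEF peak that overlapped both members. In MEFs the numbers were 264 (60.3%), 113 (25.8%) and 61 (13.9%) of 438. Some matched pairs had the same partner. The 266 ES pairs met 261 distinct MEF pairs, and the 264 MEF pairs met 260 distinct ES pairs. Where separate peaks formed no close pair, the usual reason was a spacing under 400 bp in the other list, for 76 of 104 ES pairs and 73 of 113 MEF pairs.

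A single partner peak can touch both members only at spacings up to 796 bp, because every peak is 399 bp wide. Such pairs were the tightest, with a median spacing of 442.5 bp in ES cells and 467 bp in MEFs. Members start farther apart than a peak is wide, so a peak that overlaps both must start between their starts. This held by definition in all 64 ES and all 61 MEF cases. In ES cells the partner peak lay a median of 117.5 bp from the nearer member and 348 bp from the farther one. In MEFs these distances were 190 and 343 bp. It was nearer to the higher-scoring member in 40 of 64 ES pairs (62.5%, 50.3 to 73.3) and in 34 of 61 MEF pairs (55.7%, 43.3 to 67.5). If such a pair is counted as 1 shared member only, both-shared pairs make up 19.8% in ES cells and 18.3% in MEFs, 1.18 (1.08 to 1.29) and 1.30 (1.19 to 1.42) times independence.

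With any overlap counted, joint sharing was greatest at the shortest spacings. At 400 to 499 bp both members were shared in 36.2% of 387 ES pairs (31.5 to 41.1) and in 33.1% of 447 MEF pairs (28.9 to 37.6). At 900 to 1000 bp the values were 13.6% of 243 (9.84 to 18.5) and 11.7% of 247 (8.30 to 16.3). The second values overlap those of neighbours spaced 1001 to 1500 bp, which were 13.5% of 1026 ES pairs (11.6 to 15.8) and 10.9% of 1262 MEF pairs (9.26 to 12.7). The ratio to independence was 1.33 and 1.49 at 400 to 499 bp in ES cells and MEFs. Of the both-shared pairs at 400 to 499 bp, 51 in ES cells and 35 in MEFs met a single partner peak. With separate partners required, the ES value there was 23.0% (19.1 to 27.4), and it was 23.4% (19.1 to 28.4) at 600 to 699 bp, so that the shortest spacings did not stand highest. The ES ratio at 400 to 499 bp was then 1.11 (0.917 to 1.32), an interval that included 1. In MEFs the values with separate partners were 25.3% (21.5 to 29.5) and 17.8% (14.1 to 22.1), and the ratio at 400 to 499 bp was 1.35 (1.15 to 1.57). From 797 to 1000 bp, where no single peak can touch both members, the ratio was 1.15 (0.929 to 1.41) and 1.17 (0.937 to 1.44). Neighbours spaced 1001 to 2000 bp gave 1.15 and 1.28, and those over 50000 bp 1.14 and 1.35. A ratio above 1 was thus present at wide spacings too.

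**Figure D2:**
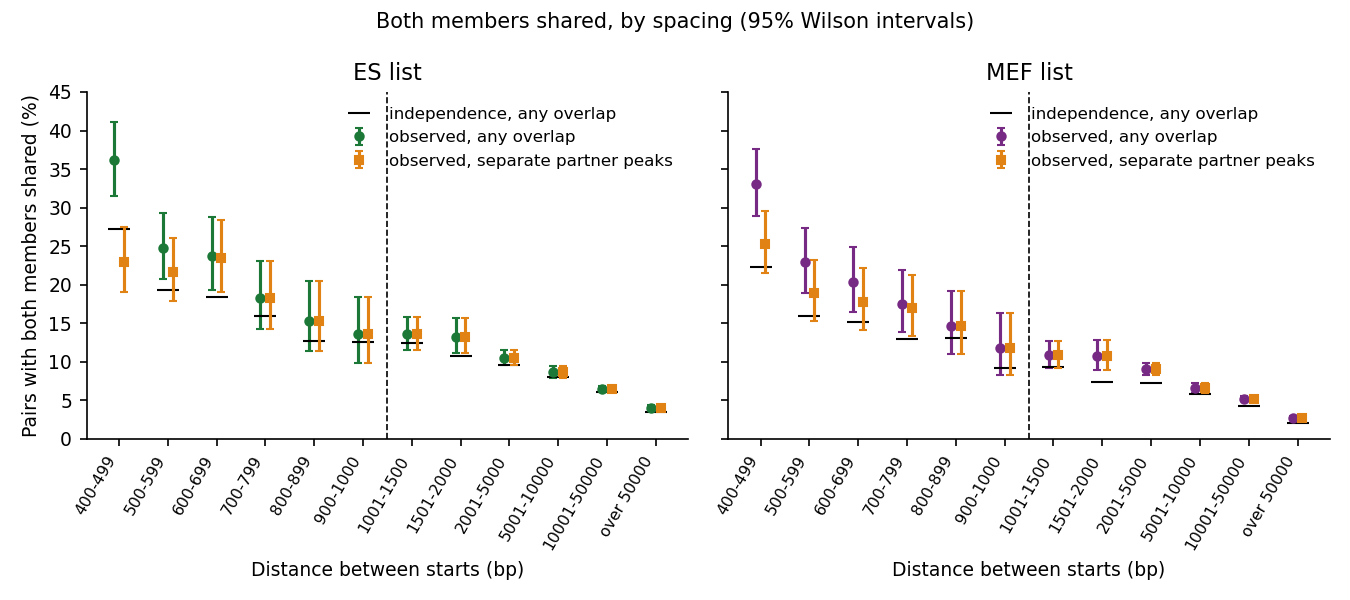
Percentage of neighbouring pairs with both members shared (y axis) by the distance between starts (x axis, classes in bp), in the ES list (left) and the MEF list (right). Circles count any overlap and squares require separate partner peaks, with 95% Wilson intervals; black dashes are the products under independence, and close pairs lie left of the dashed line, where the circles fall from 36.2% to 13.6% in ES cells and from 33.1% to 11.7% in MEFs and the first ES square stands at 23.0%.

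Within the limits, pairs became fewer with distance. The median spacing was 650 bp in ES cells (quartiles 518 and 803) and 652 bp in MEFs (515 and 805.5). ES pairs numbered 387 at 401 to 500 bp and 242 at 901 to 1000 bp, and MEF pairs 443 and 245. From 1001 to 1500 bp there were 205 ES and 252 MEF neighbours per 100 bp, so the fall flattened near the upper limit. Overlapping neighbours, spaced 201 to 398 bp, numbered 953 in ES cells and 1210 in MEFs and lie outside the rule. Both-shared pairs were tighter than the rest, at a median of 561 bp (95% interval of the median 541 to 602) in ES cells and 577.5 bp (550 to 605) in MEFs. None-shared pairs had medians of 674 bp (647 to 694) and 663 bp (647 to 694). Matched pairs had medians of 633.5 bp (596 to 663) and 603 bp (577 to 642). Their interval overlapped that of none-shared pairs in ES cells and lay below it in MEFs. Both-shared pairs include those met by a single partner peak, possible only up to 796 bp, so part of their tightness is built in.

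**Figure D3:**
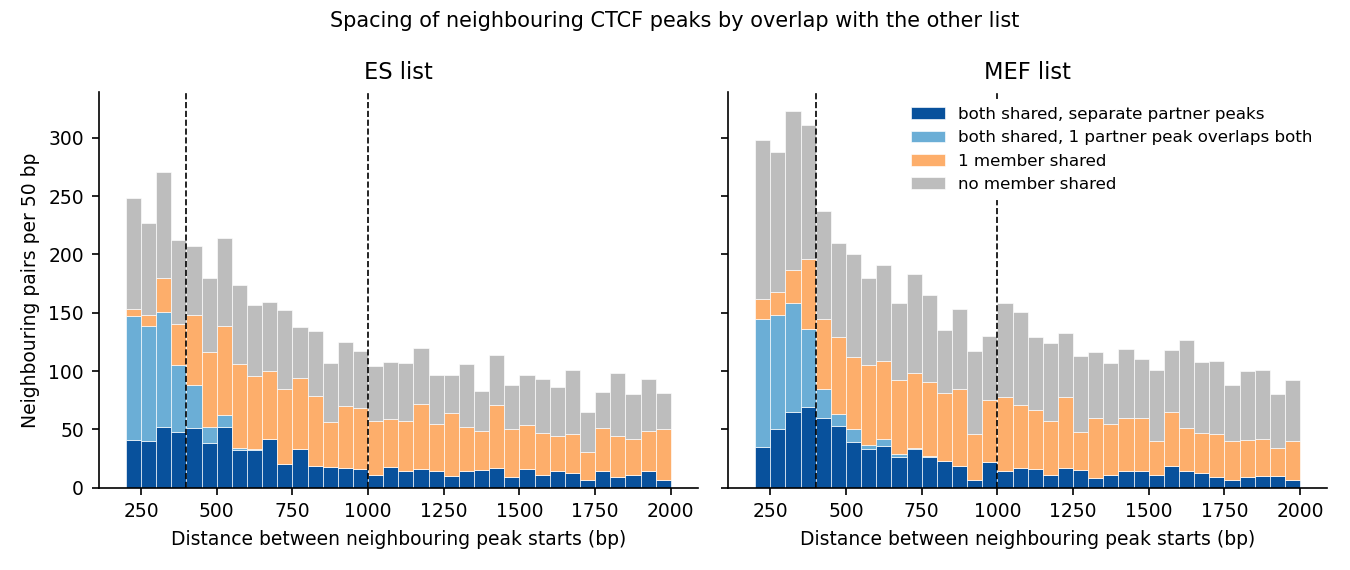
Number of neighbouring pairs per 50 bp (y axis) by the distance between their starts (x axis, bp) in the ES list (left) and the MEF list (right), stacked by how the members overlap the other list. Dashed lines mark 400 and 1000 bp; pairs with 1 partner peak on both members (light blue) fade out inside these limits, with none beyond 796 bp.

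Matched pairs differed in spacing between the cell types, within bounds set by the rule and by the overlap required of both members. How near unrelated spacings would lie within these bounds was not tested. The MEF spacing differed from the ES spacing by a median of 99 bp (quartiles 49 and 212), and 135 of 266 (50.8%, 44.8 to 56.7) differed by at most 100 bp. The pair was wider in MEFs in 121 of the 265 with a difference (45.7%, 39.8 to 51.7). No matched pair had identical coordinates for both members. Spearman's rho between the spacings was 0.39 over 266 pairs, which share the limits of the rule on both axes and are not replicates. Both members were displaced in the same direction in 160 of 262 pairs (61.1%, 55.0 to 66.8). Displacement in opposite directions changes the spacing, so the bounds on both spacings also limit it. What percentage unrelated displacements would give within these bounds was not tested, so this value has no reference. Members of matched ES pairs lay a median of 80 bp (69 to 88) from the nearest MEF peak. Shared ES peaks in no close pair lay 43 bp (42 to 44) from theirs, and the shared member of one-shared pairs 46 bp (41 to 50). For MEF peaks the values were 82.5 bp (73 to 92), 43 bp (42 to 44) and 51.5 bp (47 to 57). Members of pairs both-shared by separate peaks that formed no close pair lay 106 bp (82 to 121) away in ES cells and 109 bp (93 to 131) in MEFs. Matched pairs thus met their partners less exactly than shared peaks in no close pair and the shared members of one-shared pairs did. Outside runs the medians of matched pairs were 64 bp (54 to 82) and 70 bp (56 to 84). Runs of 3 or more peaks, each a close pair with the next, held 102 of the 266 matched ES pairs. Of all close pairs, 14.3% (12.7 to 15.9) in ES cells and 12.8% (11.4 to 14.3) in MEFs were matched. Of the 1505 ES pairs outside ES runs 164 were matched (10.9%, 9.42 to 12.6), and of the 1657 MEF pairs outside MEF runs 168 (10.1%, 8.78 to 11.7). When pairs in runs were left out of both lists, possible partners included, the values were 7.97% and 7.24%. When the overlap had to reach 50% of a peak, with runs kept, the values were 8.47% and 7.67%.

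**Figure D4:**
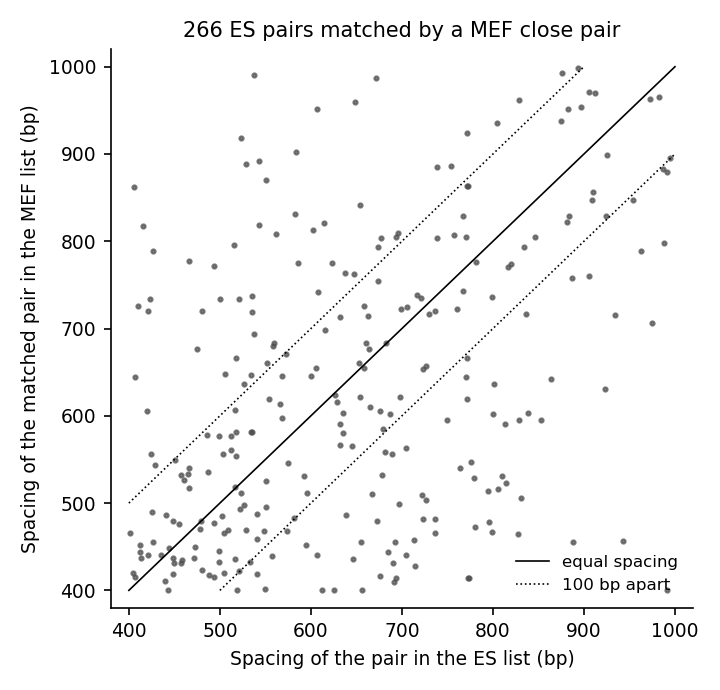
Spacing of the 266 matched pairs in the ES list (x axis, bp) and of their partners in the MEF list (y axis, bp), 1 point per ES pair. The solid line is equal spacing and the dotted lines lie 100 bp to either side; 135 of the 266 points lie within them.

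The matched pairs with the highest ranks in both lists lay on chromosomes 11 and 19. On chromosome 11 the ES peaks at 75577947 to 75578345 and 75578482 to 75578880 had scores of 352 and 321. Their MEF partners, at 75578066 to 75578464 and 75578647 to 75579045, had 215 and 342, so that the higher member changed. On chromosome 19 the ES peaks at 5800817 to 5801215 and 5801498 to 5801896 had scores of 283 and 220, with a spacing of 681 bp. The MEF partners there were spaced 558 bp and scored 236 and 250. A second chromosome 19 pair, from 5799728 in the ES list, had scores of 350 and 331 and MEF partners with 151 and 201. The chromosome 19 pairs belong to 1 run. In each of these 3 pairs the left member scored higher in ES cells and the right member in MEFs.

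Over all matched pairs the same member scored higher in both cell types only slightly more often than not. It did so in 148 of 264 pairs without ties (56.1%, 50.03 to 61.9). Where the higher score was at least 1.5 times the lower in both lists, the same member was higher in 68 of 111 (61.3%, 52.0 to 69.8).

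Scores within a pair were slightly more unequal than those of distant neighbours by the median ratio. They were not set apart by it from those of nearer neighbours. The deposited score is not defined, and values were compared only within a list. The higher score was a median of 1.80 times the lower in ES pairs (95% interval 1.75 to 1.84, quartiles 1.32 and 2.69) and 1.71 times in MEF pairs (1.67 to 1.76, quartiles 1.28 and 2.55). Neighbours over 10 kb apart gave 1.72 (1.70 to 1.73) and 1.62 (1.61 to 1.63). Those over 1000 up to 2000 bp apart gave 1.76 (1.72 to 1.83) in ES cells and 1.67 (1.61 to 1.70) in MEFs. For overlapping neighbours the values were 1.74 (1.67 to 1.82) and 1.72 (1.64 to 1.79). The intervals of both nearer sets overlapped those of close pairs. The median difference was 40 score units in ES pairs and 28 in MEF pairs. A score at least 2 times that of the neighbour was found in 42.1% of ES pairs (39.9 to 44.3) and 39.7% of MEF pairs (37.6 to 41.8). Neighbours over 10 kb apart gave 39.4% (38.9 to 39.97) and 34.6% (34.1 to 35.1), so that the intervals met in ES cells and lay apart in MEFs. Those over 1000 up to 2000 bp apart gave 41.4% (39.2 to 43.6) and 37.4% (35.5 to 39.4). These intervals overlapped those of close pairs in both lists. A score at least 5 times that of the neighbour was found in 101 ES close pairs (5.42%) and 110 MEF close pairs (5.34%), against 6.06% and 3.81% of the distant neighbours, so that this share was not higher in ES close pairs. The left member was the higher in 927 of 1848 ES pairs and 993 of 2037 MEF pairs without ties, or about equally often. Spearman's rho between the members' scores was 0.12 in both lists, over 1865 and 2059 pairs that share their library and surroundings. Between neighbours over 10 kb apart it was close to 0 in both lists. Between overlapping neighbours it was 0.17 in ES cells and 0.13 in MEFs. For those over 1000 up to 2000 bp apart it was 0.07 and 0.03.

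Both-shared pairs had the highest scores. The median member score was 94 in both-shared ES pairs, 74 in one-shared and 66 in none-shared pairs, against 70 for the whole ES list under the same limit. In MEFs it was 76, 54 and 46, against 48. None-shared pairs were therefore close to the list as a whole.

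The pairs with the highest lower score among both-shared ES pairs were the chromosome 19 and 11 pairs above, followed by the chromosome 19 peaks at 5800296 to 5800694 and 5800817 to 5801215 (331 and 283). In MEFs the first 3 belonged to 1 run on chromosome 8. Its peaks started at 125955607, 125956342, 125956990 and 125957638 and had scores of 334, 350, 384 and 299. The nearest ES peaks were 16, 169, 62 and 204 bp away.

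In one-shared pairs the shared member tended to be the higher-scoring one. It was so in 456 of 720 ES pairs (63.3%, 59.8 to 66.8) and in 493 of 725 MEF pairs (68.0%, 64.5 to 71.3). Neighbours spaced 1001 to 2000 bp gave 59.9% (56.5 to 63.3) and 64.7% (61.4 to 67.9), with overlapping intervals. The left member was the shared one in 50.8% of ES pairs and 48.4% of MEF pairs. The shared member lay a median of 46 bp from its partner in ES cells, and the other member 637 bp from the nearest MEF peak. In MEFs these distances were 51.5 and 663 bp. The peak nearest to the unshared member was one that overlapped its neighbour in 93.0% of ES pairs (90.9 to 94.6) and 94.5% of MEF pairs (92.6 to 95.95), so these distances follow largely from the spacing of the pair.

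The one-shared pairs with the highest lower score were the following. On chromosome 1 the ES peaks at 95404954 to 95405352 and 95405565 to 95405963 scored 296 and 325. The second lay 33 bp from a MEF peak, and the first narrowly missed one, at a start distance of 416 bp. On chromosome 9 the ES peaks at 25114980 to 25115378 and 25115708 to 25116106 scored 263 and 323. Here the first was shared and the second, higher one lay 623 bp from the nearest MEF peak. On chromosome 5 the ES peaks starting at 150072893 and 150073453 scored 202 and 209, and the second was shared. In MEFs the leading pairs were on chromosome 3 (102860033 and 102860700, scores 166 and 212), chromosome 1 (137264809 and 137265632, 152 and 241) and chromosome 15 (78278050 and 78278633, 166 and 135). Their unshared members lay 545, 456 and 596 bp from an ES peak.

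The most unequal ES pairs were both one-shared, with the high member shared. They had scores of 11 and 274 on chromosome 15 (85078934 and 85079697) and of 346 and 15 on chromosome 10 (36856030 and 36856757). Both of the most unequal MEF pairs lay on chromosome 9 within a few kilobases, with scores of 261 and 16 (3015877 and 3016716) and of 14 and 222 (3021073 and 3021952). The second of them was a matched pair.

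By the distance of their nearer member, none-shared pairs of ES cells lay about as far from MEF peaks as other unshared neighbours did. The nearest MEF peak was a median of 6.66 kb from the nearer member of 707 ES pairs, and 6.84 kb for the 23427 none-shared neighbours spaced over 1000 bp. For the 891 MEF pairs the median distance to an ES peak was 8.05 kb, against 10.6 kb. An ES peak lay within 10 kb of 55.8% of these MEF pairs (52.5 to 59.01) and of 48.7% of the wider neighbours (48.1 to 49.2). The 2 members of wider neighbours lie farther apart than those of a close pair, so distances from the nearer member are not like measures. The highest none-shared ES pair was on chromosome 11 at 29761492 to 29761890 and 29761994 to 29762392, with scores of 181 and 204. It was 20.4 kb from the nearest MEF peak. The others were on chromosome 16 (32697712 and 32698662, scores 160 and 165, 8.11 kb away) and chromosome 12 (77933707 and 77934156, 152 and 154, 3.95 kb away). In MEFs they were on chromosome 2 (179651500 and 179651967, scores 138 and 146), chromosome 4 (136875725 and 136876180, 128 and 130) and chromosome 2 (127948145 and 127948807, 109 and 131). These lay 2.25, 22.7 and 5.15 kb from the nearest ES peak. These 6 pairs were chosen as the none-shared pairs with the highest lower score. Both peaks of each scored above their list's upper quartile, 99 in ES cells and 68 in MEFs.

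Runs of 3 or more peaks, each within 400 to 1000 bp of the next, were shared more often than isolated pairs. There were 157 such runs in ES cells, with 517 peaks, and 171 in MEFs, with 573 peaks. They held 360 of the ES pairs (19.3%) and 402 of the MEF pairs (19.5%). Of the ES peaks in runs, 61.1% were shared (56.9 to 65.2), against 37.8% (36.1 to 39.6) in the 1505 pairs that stood alone. In MEFs the values were 56.4% (52.3 to 60.4) and 34.2% (32.7 to 35.9). Every peak was shared in 43 ES runs (27.4%, 21.02 to 34.8) and 48 MEF runs (28.1%, 21.9 to 35.2), and none in 21 and 33. Independence at these shares would give 20.6% and 15.7% with every peak shared. Median scores were 82 in ES runs and 71 in pairs that stood alone, and 66 and 51 in MEFs; the part of score in this difference was not tested. By length, 57.5% of peaks were shared in the 124 ES runs of 3 (52.5 to 62.4), 60.9% in the 23 of 4 (50.7 to 70.2) and 82.9% in the 7 of 5 (67.3 to 91.9). In MEFs the values were 50.1% in the 131 runs of 3 (45.2 to 55.0), 65.2% in the 28 of 4 (55.99 to 73.4) and 70.0% in the 8 of 5 (54.6 to 81.9). Intervals of neighbouring lengths overlapped, other than those of 3 and 4 in MEFs, and peaks of 1 run are not independent.

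The longest runs had 6 peaks in ES cells and 8 in MEFs. The 3 ES runs of 6 were on chromosome 2 (72240773 to 72243936), chromosome 4 (11096889 to 11100093) and chromosome 19 (5799056 to 5802643). Of their peaks 5, 6 and 6 were shared. Scores ran from 44 to 176, from 38 to 225 and from 210 to 350. The MEF runs of 8 were on chromosome 8 (87228109 to 87233429, 8 shared) and chromosome 16 (24982415 to 24987053, 5 shared). The next MEF run was on chromosome 1 (133828061 to 133831512), with 6 peaks, all shared, and 9 ES peaks in the same span. The chromosome 8 run of 8 spanned 5321 bp, and 11 ES peaks lay in that span. The chromosome 19 ES run had 7 MEF peaks in its 3588 bp. Dense calling at these places was therefore present in both lists.

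Close pairs were concentrated in peak-rich regions. In windows of 1 Mb with under 10 ES peaks, 9.80 of 1000 neighbouring ES pairs were close pairs (7.31 to 13.1), and in windows with 60 or more it was 81.6 (72.7 to 91.4). In MEFs the values were 7.05 (4.66 to 10.7) and 90.1 (80.0 to 101). A rise is built in, because neighbours lie nearer to each other where peaks are dense. The 241 windows with most ES peaks, 10% of all, held 28.6% of ES peaks and 44.0% of ES close pairs (41.8 to 46.3). The corresponding MEF values were 23.8% and 38.3% (36.2 to 40.4).

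Joint sharing of close pairs exceeded that of wider neighbours at each density. In MEFs both-shared pairs went from 7.92% (4.93 to 12.5) in windows with 10 to 19 peaks to 30.5% (25.1 to 36.5) in windows with 60 or more. Neighbours spaced over 1000 bp in the same windows went from 2.19% (1.92 to 2.49) to 11.8% (10.6 to 13.2). In ES cells close pairs gave 19.7% (15.1 to 25.3) and 28.8% (23.7 to 34.4), and wider neighbours 4.91% (4.48 to 5.39) and 10.3% (9.22 to 11.4). The ES values did not rise steadily, with 27.7% (23.4 to 32.5) at 30 to 39 peaks and 20.5% (17.3 to 24.1) at 40 to 59. Windows with under 10 MEF peaks held only 22 close pairs, 9.09% of them both-shared (2.53 to 27.8).

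**Figure D5:**
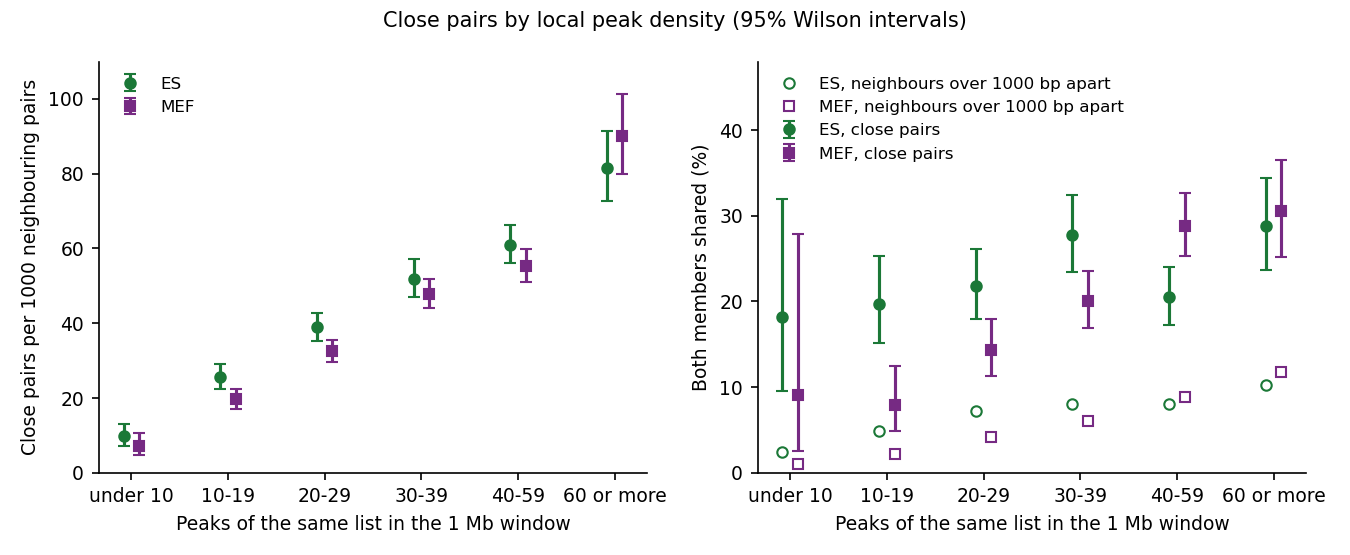
Close pairs per 1000 neighbouring pairs (left y axis) and percentage of pairs with both members shared (right y axis) by the number of peaks of the same list in the 1 Mb window (x axes), in ES cells (circles) and MEFs (squares), with 95% Wilson intervals. Open symbols are neighbours over 1000 bp apart in the same windows; filled symbols lie above them in all 6 density classes.

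Chromosomes differed moderately. Chromosome 11 had 55.9 close pairs per 1000 neighbours in ES cells (48.6 to 64.2), the highest value there, and 48.8 in MEFs (42.3 to 56.2). Chromosome 19 had the highest MEF value, 53.0 (43.0 to 65.1). The lowest values were 25.9 on chromosome 14 in ES cells (19.2 to 34.8) and 30.5 on chromosome 12 in MEFs (24.0 to 38.6). The list-wide values were 43.1 and 39.6. Across the 19 chromosomes, Spearman's rho between close pairs per 1000 and peaks per Mb was 0.50 in ES cells and 0.70 in MEFs; chromosomes are not replicates, and both quantities move with peak density. Both-shared pairs ranged from 14.6% on chromosome 4 to 36.5% on chromosome 19 in ES cells. In MEFs they ranged from 13.8% on chromosome 12 to 31.9% on chromosome 9.

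The windows with most close pairs differed in how much the other list held. Chromosome 10 from 80000001 to 81000000 had 16 ES pairs, 8 of them both-shared, and 8 MEF pairs. Chromosome 8 from 87000001 to 88000000 had 13 ES pairs (8 both-shared) and 14 MEF pairs (10 both-shared); it was the third of the MEF windows by number. It also holds the MEF run of 8. By contrast, chromosome 11 from 3000001 to 4000000 had 13 ES pairs, of which 1 was both-shared and 7 none-shared, and only 4 MEF pairs among 68 MEF peaks. In MEFs the leading window was chromosome 19 from 5000001 to 6000000, with 17 pairs (10 both-shared) and 12 ES pairs. It was followed by chromosome 11 from 77000001 to 78000000, with 15 pairs, of which 4 were both-shared and 10 one-shared, and 4 ES pairs. At least 1 close pair was found in 862 of the 2406 windows in ES cells (35.8%) and in 988 in MEFs (41.1%). Close pairs of both lists were found in 580 windows, and the part of peak density in this was not tested.

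A minority of the close pairs without a match lay within 10 kb of a close pair of the other list, a larger share than among wider neighbours. Of the 1599 unmatched ES pairs, 18.4% (16.6 to 20.4) had a MEF close pair within 10 kb, against 5.98% (5.76 to 6.22) of ES neighbours spaced over 1000 bp. For the 1795 unmatched MEF pairs the value was 17.2% (15.5 to 18.97), against 5.07% (4.88 to 5.27). The median distance to the nearest close pair of the other list was 159 kb for unmatched ES pairs and 210.3 kb for unmatched MEF pairs, against 304 and 435 kb for the wider neighbours. Regional peak density was higher around close pairs, and its part in this was not tested.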

How the data were processed

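Each library is represented by 1 peak list, with 399 bp peaks on build mm9 per the submitters' processing notes. The authors deposited a whole-number score per peak, not defined in the labels or the headerless files. The aligner, peak caller, threshold and any input control: not given in the sources used here. Read depth is unknown. Neighbours were consecutive peaks of a list, and overlap was computed from distances between starts, with shared counts checked with bedtools 2.31.1. The counting was tested on simulated data. Positions count from 1, with 1 added to the deposited start. Intervals are 95% Wilson, or exact binomial for medians. Named pairs, per list, were the 3 per class with the highest lower score, the 2 most unequal pairs, the 3 longest runs, the 3 windows with most pairs and the 3 highest-ranked matched pairs. Ties went to the lower chromosome and position. The members and lists were chosen with earlier results of these data known. Alternatives concerned overlap, score, list length, spacing and runs. Gene annotation and sequence were not analysed here, because no mm9 genome was used. Work was done in Python 3.11.15 with scipy 1.17.1, pandas 2.3.3, matplotlib 3.10.9 and numpy 2.4.6.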

Additional observations from a re-analysis of the deposited data

Results flagged for a closer look

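Close pairs were also called outside chromosomes 1 to 19, in numbers above the limit of 3 set for sequences that no comparison used. Chromosome X carried 21 ES pairs, of which 12 were both-shared, and 33 MEF pairs, of which 10 were both-shared. These were 26.2 (17.2 to 39.7) and 23.7 (17.0 to 33.2) per 1000 neighbouring pairs, below the list-wide 43.1 and 39.6 of the autosomes. The mitochondrial genome carried 9 MEF pairs, all both-shared, among 16 neighbouring pairs under the score limit; its 3 ES pairs were not above the limit. Random and unplaced sequences carried 9 ES pairs and 10 MEF pairs, with 3 both-shared in either list. The both-shared share among all neighbouring pairs of these sequences was not computed, so none of these both-shared counts has a reference. Peaks were crowded on the mitochondrial genome, where 9 of 16 neighbouring MEF pairs were close pairs. The part of this crowding in the overlap was not tested.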

How the results depend on the processing

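The alternatives gave 78 values, of which 33 lay inside the counting interval of the reported value and 45 outside. Both-shared pairs exceeded the product under independence in 22 of 22 alternatives, and the interval lay above 1 in 18. The alternatives draw on the same lists and are not independent of each other. Against the share of all peaks, the ratio would exceed 1 even for independent members, because pair members were shared more often than all peaks. In what follows, paired values are ES then MEF. When the overlap had to reach 50%, both-shared pairs were 13.0% and 11.7%, their ratios to independence 1.07 and 1.25, shared members 34.9% and 30.5%, and matched pairs 8.47% and 7.67%. Requiring separate partners gave both-shared pairs of 19.8% and 18.3% and shared members of 41.0% and 37.5%. In the higher-scoring 50% of a list, both-shared pairs were 38.9% and 36.3%, shared members 56.5% and 53.5%, close pairs 2.66% and 2.85% of neighbours, and the MEF ratio to independence 1.27. Shortening the MEF list by score to as many peaks as the ES list has, both-shared pairs were 20.5% and 25.1% and shared members 39.0% and 42.9%. At 400 to 700 bp both-shared pairs were 28.4% and 26.0% and shared members 46.5% and 42.4%. At over 700 bp they were 16.0% and 14.98%, and 37.3% and 34.5%, with ratios of 1.15 and 1.26. Without runs of 3 or more, both-shared pairs were 17.9% and 15.9%, shared members 37.8% and 34.2%, and matched pairs, with runs left out of both lists, 7.97% and 7.24%. At 797 to 1000 bp, a setting chosen after seeing the data, both-shared pairs were 14.9% and 13.1%, with ratios of 1.15 and 1.17. Against the shared share of all peaks of the list, the ratios were 3.43 and 4.50. Median spacings and score ratios stayed within their intervals under each alternative run for them. The causes of these shifts were not tested. No paired analysis was possible because there is 1 library of each cell type. Depth is not known, so a member not called in the other list may be bound there below the threshold.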
